A study of Mus musculus with 16 samples.

Results

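To ask what loss of the CDK8 protein changes once the kinase is already inhibited, 4 Cdk8-ko cell lines were compared with 4 wild-type cell lines after all of them had been treated with Senexin B, a small-molecule inhibitor of CDK8 and CDK19. These are 8 of the 16 libraries of the series; the other 8 come from the same lines kept in DMSO. Every gene that passed a filter on low counts in the 8 Senexin B libraries entered the comparison, which were 13010 of the 50686 genes listed.

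All lines are mouse B-lineage leukemia cells, made by infecting C57BL/6N bone marrow with a retrovirus that carries the BCR-ABL1p185 oncogene, and the study describes them as individually derived. The Cdk8-ko lines came from mice with floxed Cdk8 and Vav-Cre, which deletes in blood-forming cells. The labels call the other genotype wild-type; the methods of the study describe it as Cdk8 fl/fl without Cre. The Senexin B libraries received 1 µM of the inhibitor for 48 h, and the DMSO libraries 0.01% DMSO for the same 48 h.

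CDK8 is a cyclin-dependent kinase that binds cyclin C and, with MED12 and MED13, forms the kinase module of Mediator, the complex that carries signals from transcription factors to RNA polymerase II. CDK19 is its close relative and can take its place in the module. The kinase phosphorylates transcription factors, and a deletion removes the protein from the complex while an inhibitor leaves it there.

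The 8 libraries held between 13145876 and 18349425 counts (median 14901595.5). Genes of the pro-B and pre-B marker list were high, with summed levels between 16678 and 21448 CPM (counts per 1000000 counted reads) in the wild-type lines and between 13285 and 19936 CPM in the Cdk8-ko lines. T cell and NK markers summed to between 172 and 289 CPM against between 46.7 and 337 CPM, with 5 of 14 at 0 in all 8 libraries, and myeloid markers to between 8.67 and 67.7 CPM against between 11.2 and 112 CPM, with 4 of 16 at 0. Erythroid and megakaryocyte markers ranged from 5.89 to 261 CPM and from 5.25 to 260 CPM, with 4 of 12 at 0. Plasma cell markers were higher, summing to between 1036 and 1577 CPM against between 1030 and 1923 CPM, with 0 of 8 at 0. Correlations of log2 CPM ran from 0.902 to 0.936 within the wild-type lines, from 0.886 to 0.957 within the Cdk8-ko lines, and from 0.892 to 0.953 between genotypes.

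The most alike pair was Cdk8-ko lines 3 and 4, which also carried the same immunoglobulin heavy chain variable genes. Ighv8-7 was at 116 and 90.7 CPM in these lines and at or under 0.161 CPM in the other 6, and Ighv5-15 was at 25.6 and 17.2 CPM and at 0 in the other 6. Ighv7-1 was at 20.2 CPM in Cdk8-ko line 1 and at or under 0.0705 CPM elsewhere. Whether lines 3 and 4 arose independently was not tested, and the main results are therefore also given with both summed and counted as 1 line. The X-linked Xist transcript was at 2844 CPM in wild-type line 2 and 4061 CPM in Cdk8-ko line 2, at 134 CPM in Cdk8-ko line 1, and between 1.69 and 2.85 CPM in the other 5 lines. The Y-linked gene Kdm5d was near 0 in line 2 of each genotype and in Cdk8-ko line 3, and between 49.8 and 68.6 CPM in the other 5 lines. The Y-linked genes Uty and Ddx3y were near 0 in the same lines. Eif2s3y, also Y-linked, was in addition at 0 CPM in wild-type line 1 and at 1.09 CPM in Cdk8-ko line 4. It was between 34.4 and 55.5 CPM in wild-type lines 3 and 4 and Cdk8-ko line 1.

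Cdk8 itself, on chr5:146231230-146302874 (GRCm38, plus strand), was counted in every library. Its level was 87.4, 55.3, 55.8 and 53.8 CPM in wild-type lines 1 to 4 and 43.3, 60.4, 42.2 and 40.1 CPM in Cdk8-ko lines 1 to 4. Of the knockout lines 3 lay below all wild-type lines, and Cdk8-ko line 2 lay above 3 of them. The means were 63.1 ± 16.2 CPM and 46.5 ± 9.37 CPM (SD, n = 4 each), so that the knockout lines held 73.7% of the wild-type level, or 84.6% when wild-type line 1 was left out. The 2-sided exact permutation test on log2(CPM + 1) gave p = 0.114, where the smallest value it can give is 0.0286. In the fit across all genes the log2 fold change was -0.44 ± 0.22 (SE), with a 95% confidence interval from -0.94 to 0.06. The counts cover the whole gene, and RNA from exons outside the floxed part is included in them; the genotype can therefore not be read from the gene count alone.

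The rest of the kinase module differed by less than the spread between lines. Cdk19, the paralog kinase, was at 167 ± 25.7 CPM in the wild-type and 154 ± 22.9 CPM in the Cdk8-ko lines (SD, n = 4 each), and the interval of its log2 fold change, from -0.51 to 0.28, leaves out a 2-fold difference in either direction. This holds for the gene count, as Cdk19 shares 1546 exon bases with Cdk19os on the opposite strand, where unstranded counting cannot tell them apart. Ccnc, which encodes cyclin C, was at 46.0 ± 7.45 and 43.1 ± 8.33 CPM, with an interval from -0.54 to 0.35. Med13 (interval from -0.43 to 0.80) and Med13l (from -0.64 to 0.45), the subunits that link the kinase to core Mediator, also stayed within 2-fold. Med12, the activator of the kinase, ranged from 122 to 325 CPM against from 132 to 215 CPM, and its interval from -1.01 to 0.32 just reaches a 2-fold decrease. Med12 shares 4347 exon bases with Gm21986 on the same strand, where reads of the genes cannot be told apart. Its paralog Med12l was low, at 3.75 ± 1.85 and 6.42 ± 3.53 CPM, with an interval from -0.55 to 2.1, and shares 8760 exon bases with Igsf10 on the opposite strand, from which unstranded counting cannot separate it. None of the 7 passed an unadjusted p of 0.05.

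**Figure D1:**
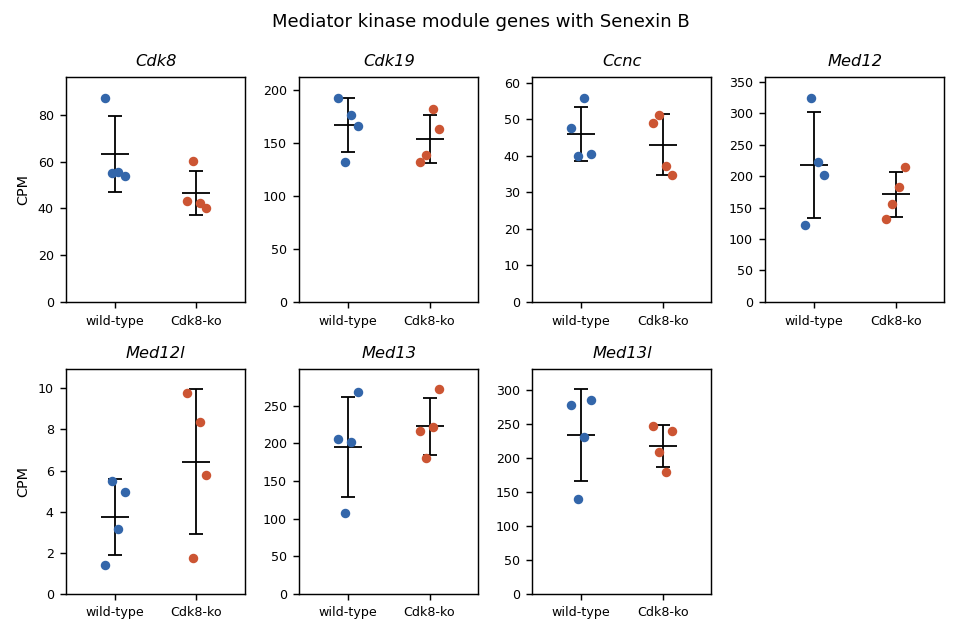
CPM of the 7 kinase module genes in the 8 Senexin B libraries, with 1 point per line, the mean (long bar) and the SD (whiskers) of each genotype. Wild-type and Cdk8-ko points overlap for every gene; for Cdk8 the lines at 87.4 CPM (wild-type) and 60.4 CPM (Cdk8-ko) stand apart from the others of their genotype.

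Of 26 genes of core Mediator, the part that contacts RNA polymerase II, 25 were tested, and the interval of 24 of them lay within a 2-fold change in either direction. Their log2 fold changes ran from -0.33 to 0.27 with a median of 0.01, and none passed an unadjusted p of 0.05.

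Across the 13010 genes, no gene passed an adjusted p of 0.05 together with a fold change over 2 in edgeR's quasi-likelihood test (0% called), and 202 genes (1.55%) had an unadjusted p under 0.05, of which 114 were higher (0.876%) and 88 lower (0.676%) in the Cdk8-ko lines. DESeq2 on the same libraries called 10. The median log2 fold change over all tested genes was -0.00. The lines of 1 genotype varied by a median coefficient of variation of 29.0% (wild-type) and 25.0% (Cdk8-ko), which gave a median standard error of 0.30 on the log2 scale. For 7655 genes (58.8%) the interval of the difference lay within 2-fold in both directions, and for the others these 8 libraries do not settle whether a change of that size is present.

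In 135 genes (1.04%) all 4 Cdk8-ko libraries lay on 1 side of all 4 wild-type libraries, 73 higher (0.561%) and 62 lower (0.477%). If the 8 libraries stood in random order, a gene would separate in this way with a probability of 0.0286. The share found was below that, so separation alone is no evidence of a difference. Of the 135 genes, 26 also differed by more than 2-fold, 16 higher and 10 lower. The 12 with the smallest p among the higher and all 10 lower genes are described here. Apart from Sva, each had an adjusted p of 1.00 after rounding, and the intervals given for them are 95% intervals of the log2 fold change from the same fit, not adjusted for the number of genes.

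**Figure D2:**
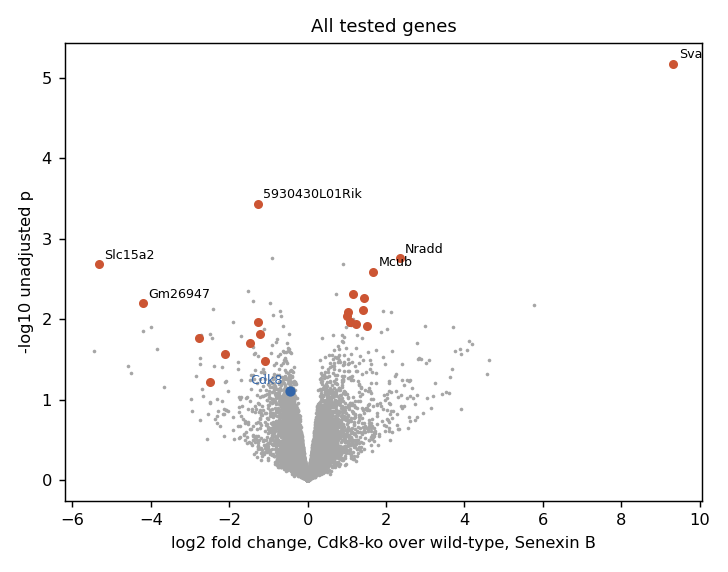
Each point is 1 of the 13010 tested genes, with the log2 fold change of Cdk8-ko over wild-type lines under Senexin B on the x axis and -log10 of the unadjusted p on the y axis. The 22 separated genes described in the text are in red and Cdk8, at -0.44, is in blue; Sva lies alone at the upper right.

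Sva, which encodes seminal vesicle antigen, a secreted glycoprotein, was the gene with the smallest p. It had 0 counts in each of the 4 wild-type libraries and 103, 95, 68 and 67 counts in Cdk8-ko lines 1 to 4, which is 5.83, 6.39, 4.06 and 4.55 CPM. The groups did not overlap, and the knockout level of 5.21 ± 1.09 CPM (SD, n = 4) was at least 24.9-fold higher than the floor of 3 counts per library, 0.209 CPM. Its adjusted p was 0.0865, which did not pass the limit. Fits of the same counts gave adjusted p-values between 3.36e-11 (DESeq2) and 1.00 (replicate block), with 0.000279 when all 16 libraries shared 1 fit and 0.549 when Cdk8-ko lines 3 and 4 were summed. The gene lies on chr6:42038394-42042851 (plus strand) and shares no exon base with another gene of the annotation.

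Nradd, which encodes a membrane protein with a death domain related to the neurotrophin receptor, was the next of the higher genes. It was at 0.352, 0.241, 0.737 and 0.976 CPM in wild-type lines 1 to 4 and at 4.81, 1.55, 2.57 and 2.99 CPM in Cdk8-ko lines 1 to 4. Even the lowest knockout line lay above the highest wild-type line, with a log2 fold change of 2.34 ± 0.53 (SE) and a 95% interval from 1.14 to 3.54. The wild-type libraries held only between 3 and 14 counts.

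Slc15a2, which encodes the proton-coupled peptide transporter PEPT2, had the largest negative fold change among the separated genes. The wild-type lines held 10.4, 27.0, 12.4 and 39.4 CPM, and Cdk8-ko lines 1 to 4 held 1.42, 0, 0 and 0.747 CPM. The log2 fold change was -5.33 ± 1.22 (SE) with a 95% interval from -8.11 to -2.55, and DESeq2 gave an adjusted p of 0.00103. All lines of 1 genotype thus expressed the transporter, while 2 of the knockout lines had no count for it.

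5930430L01Rik, an uncharacterised RIKEN gene, was lower with the smallest p of all separated genes after Sva. It was at 28.8, 22, 23.2 and 33.9 CPM in the wild-type and at 13.6, 10.0, 9.07 and 12.1 CPM in the Cdk8-ko lines, a log2 fold change of -1.27 ± 0.23 (SE) with a 95% interval from -1.78 to -0.75 and a DESeq2 adjusted p of 0.00334. It lies on chr5:148990056-148995223 (minus strand), 2.69 Mb from Cdk8 on the same chromosome. Whether its position has a part in the difference was not tested.

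The promoters of these 4 genes are shown because they had the smallest p among the genes separated by over 2-fold. Each runs 5′ to 3′ on the gene's strand from 250 bases before to 50 bases after the start (RefSeq, GRCm38.p6), at chr6:42038144-42038443 (plus), chr9:110624344-110624643 (minus), chr16:36784913-36785212 (minus) and chr5:148995165-148995464 (minus). Capitals mark the motifs searched on both strands.
Sva: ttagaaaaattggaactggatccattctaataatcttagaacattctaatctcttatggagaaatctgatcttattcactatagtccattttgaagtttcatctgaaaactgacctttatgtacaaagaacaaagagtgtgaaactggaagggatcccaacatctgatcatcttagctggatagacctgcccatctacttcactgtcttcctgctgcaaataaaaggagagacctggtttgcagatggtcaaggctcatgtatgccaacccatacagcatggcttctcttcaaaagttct
Nradd: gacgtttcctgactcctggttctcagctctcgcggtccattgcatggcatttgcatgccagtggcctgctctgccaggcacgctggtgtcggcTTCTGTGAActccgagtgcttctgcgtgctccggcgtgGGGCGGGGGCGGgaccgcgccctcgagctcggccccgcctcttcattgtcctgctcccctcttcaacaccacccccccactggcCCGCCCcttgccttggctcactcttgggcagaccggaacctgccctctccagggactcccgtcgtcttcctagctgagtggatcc
Slc15a2: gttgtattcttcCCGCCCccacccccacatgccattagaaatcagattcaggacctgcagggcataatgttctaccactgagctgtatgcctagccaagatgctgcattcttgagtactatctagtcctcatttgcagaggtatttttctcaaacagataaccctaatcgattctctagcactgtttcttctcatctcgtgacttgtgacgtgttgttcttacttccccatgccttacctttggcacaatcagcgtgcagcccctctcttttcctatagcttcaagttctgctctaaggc
5930430L01Rik: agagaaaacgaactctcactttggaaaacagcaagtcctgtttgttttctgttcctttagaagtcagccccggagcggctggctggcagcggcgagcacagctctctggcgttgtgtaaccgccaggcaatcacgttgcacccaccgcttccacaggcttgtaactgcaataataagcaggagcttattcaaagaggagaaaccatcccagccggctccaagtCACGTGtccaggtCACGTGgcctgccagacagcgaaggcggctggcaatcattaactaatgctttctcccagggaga

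The motifs were TATAAA, the TATA box, found in 13.6% of all 32851 promoters of this length, the STAT element TTCNNNGAA in 8.3%, the GC box GGGCGG in 35.7% and the E-box CACGTG in 7.15%. The Sva window held none of them, and its GC content was 38.7% against a median of 52.7% over all promoters. Nradd held 1 TTCNNNGAA and 3 GGGCGG matches, with a GC content of 65.7%. Slc15a2 held 1 GGGCGG and 5930430L01Rik held 2 CACGTG matches. The 4 windows shared no motif among all of them. A match describes the letters of the window and is no evidence that a factor binds there.

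The other 10 higher genes had log2 fold changes from 1.00 to 1.66. Tgfb3, which encodes the growth factor TGF-β3, was at 90.7, 275, 151 and 225 CPM in the wild-type and at 333, 297, 691 and 432 CPM in the Cdk8-ko lines, with a log2 fold change of 1.24 ± 0.39 (SE) and a 95% interval from 0.36 to 2.13. Ift43, an intraflagellar transport gene that lies 3519 bases from Tgfb3 on chromosome 12, was at between 2.47 and 6.32 CPM against between 7.98 and 17.1 CPM, with a log2 fold change of 1.43 ± 0.39 (SE). These neighbours were thus both higher in all 4 knockout lines.

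Lpcat4, a lysophospholipid acyltransferase gene, was at between 11.6 and 26.6 CPM in the wild-type and between 32.2 and 63.5 CPM in the Cdk8-ko lines (log2 fold change 1.09 ± 0.34 SE, 95% interval from 0.32 to 1.86). Syt11, a synaptotagmin gene of vesicle traffic, was at 3.15 ± 0.75 CPM in the wild-type and 6.98 ± 1.67 CPM in the Cdk8-ko lines, and Guca1a, a calcium-binding activator of guanylate cyclase, at 3.46 ± 2.04 and 9.80 ± 3.54 CPM (SD, n = 4 each). Tgtp2, an interferon-inducible GTPase gene, was at 1.61 ± 0.35 and 3.24 ± 0.62 CPM, with reads that could be split with its near copy Tgtp1. Tmc4, a transmembrane channel-like gene, and Gm38372, an unnamed gene model, had log2 fold changes of 1.41 and 1.07. Mcub, whose product dampens the mitochondrial calcium uniporter, was at 0.326 ± 0.158 and 1.07 ± 0.18 CPM and Nkain1 at 0.637 ± 0.134 and 1.31 ± 0.26 CPM; with between 2 and 24 counts a library, both rest on few reads.

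**Figure D3:**
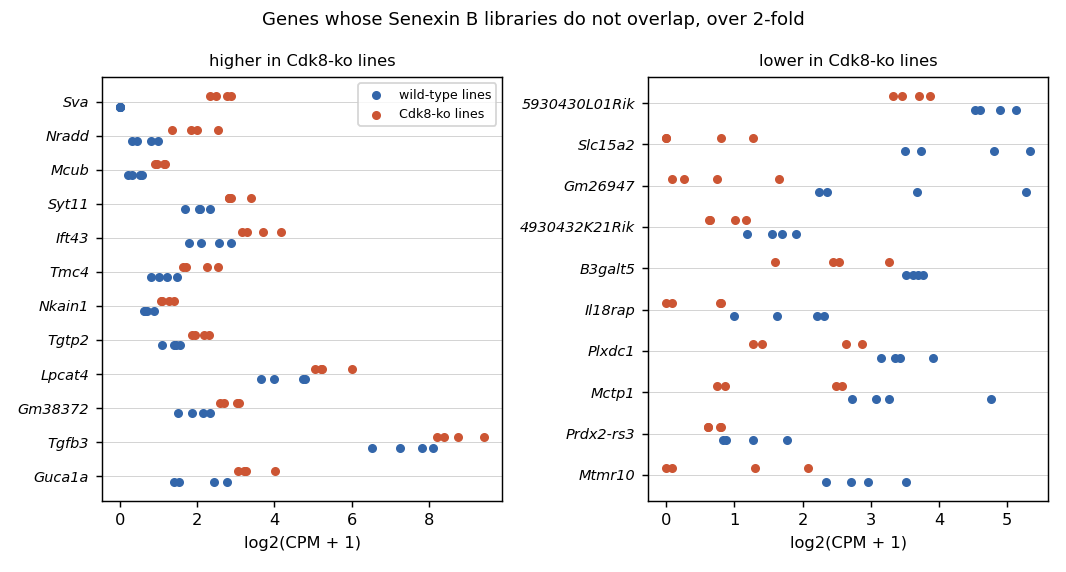
log2(CPM + 1) of each wild-type and Cdk8-ko line under Senexin B for the genes whose groups did not overlap and differed by over 2-fold: the 12 with the smallest p among the higher genes on the left and all 10 lower genes on the right, in order of p. Sva is at 0 in the wild-type lines, and most of the others lie low on the scale, with Tgfb3 as the highest.

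Among the lower genes, Gm26947, a noncoding gene model, was at 37.7, 11.7, 3.74 and 4.13 CPM in the wild-type and 0.679, 2.15, 0.0597 and 0.204 CPM in the Cdk8-ko lines, with a log2 fold change of -4.20 ± 1.17 (SE) and a 95% interval from -6.87 to -1.54. B3galt5, a galactosyltransferase gene of glycolipid synthesis, was even among the wild-type lines at 11.6 ± 0.89 CPM and lower and more spread among the Cdk8-ko lines at 4.98 ± 2.73 CPM (SD, n = 4 each). Il18rap, the accessory chain of the interleukin-18 receptor, was at 2.67 ± 1.39 and 0.388 ± 0.410 CPM. Plxdc1, a plexin domain gene, was at 10.2 ± 2.67 and 3.66 ± 2.5 CPM.

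Mctp1, a calcium-binding membrane protein gene, was separated with a narrow gap, the lowest wild-type line being at 5.63 CPM and the highest knockout line at 4.95 CPM. The same was true of Mtmr10, a myotubularin-related gene, at 4.10 and 3.23 CPM, whose 95% interval from -5.13 to 0.15 includes 0. 4930432K21Rik had a log2 fold change of -1.28 ± 0.40 (SE). Prdx2-rs3, a gene model related in sequence to Prdx2 whose reads could be split with it, had -1.08 ± 0.43 (SE).

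DESeq2 called 10 of 27645 genes (0.0362%), 5 higher (0.0181%) and 5 lower (0.0181%). Sva, Slc15a2, 5930430L01Rik and Gm26947 were among them, and the other 6 had not passed the count filter of the edgeR fit. Gm37068, an unnamed gene model, had 0 counts in all wild-type libraries and 19, 24, 7 and 17 counts in Cdk8-ko lines 1 to 4, at least 5.10-fold above the floor of 3 counts. In 5 of these 6 genes the call rested on some of the lines. Ighv5-15 was present only in Cdk8-ko lines 3 and 4. Tfpi, an inhibitor of the coagulation pathway, was at 35.4, 3.86, 31.4 and 0.0751 CPM in the wild-type lines and at or under 0.113 CPM in the knockouts, so that wild-type line 4 lay with the knockout lines.

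Cyyr1 was at 4.87, 0, 3.88 and 1.97 CPM in the Cdk8-ko lines and at or under 0.0804 CPM in the wild-type lines, and Cd302, a C-type lectin gene, at 2.55, 0.135, 8.06 and 0.883 CPM against at or under 0.0804 CPM. For both, Cdk8-ko line 2 was at or near the wild-type level. Colec12, a scavenger receptor gene, was at 1.97, 17.0, 4.53 and 0 CPM in the wild-type lines and at or under 0.226 CPM in the knockouts. Its groups overlapped through wild-type line 4.

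Gene lists of the pathways around CDK8 are given by counts, beside the background of 1.55% of genes at an unadjusted p under 0.05 and 49.4% above 0. The lists were chosen with earlier results of these data known. Among the members at p under 0.05, Pde4d, Rcan1, Ptk2, Rag1, Rag2 and H19 had earlier been described in the DMSO libraries of the same lines. A share above the background in their lists is therefore no independent evidence. STAT5 and BCR-ABL1 targets had 20 of 20 genes tested, a median of 0.09, and 1 gene at p under 0.05. That gene was Id1, an inhibitor of basic helix-loop-helix factors, at 8.74, 4.18, 1.58 and 15.8 CPM in the wild-type and 2.49, 1.08, 0.955 and 1.15 CPM in the Cdk8-ko lines (log2 fold change -2.40 ± 0.70 SE, 95% interval from -3.98 to -0.82). Cdk8-ko line 1 exceeded wild-type line 3. The survival gene Bcl2l1 was at 98.6, 151, 122 and 451 CPM in the wild-type and 189, 62.2, 121 and 121 CPM in the Cdk8-ko lines. Its log2 fold change of -0.74 ± 0.53 (SE) was -0.0041 without wild-type line 4, the line with the highest level.

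Of the 51 genes of the mTOR and PI3K pathway, which couples nutrients and growth factors to protein synthesis, 50 were tested, none had a p under 0.05, 28 were above and 22 below 0, the median was 0.04, and the intervals of 39 lay within 2-fold. Eif4e, the cap-binding translation factor, was at -0.20 ± 0.14, the insulin receptor gene Insr at 0.44 ± 0.22 and the Rag GTPase gene Rragd at 1.06 ± 0.74. Igf1r, the growth factor receptor upstream of PI3K, was at 4.09, 0.724, 2.26 and 4.58 CPM in the wild-type and 0.283, 0, 1.37 and 1.09 CPM in the Cdk8-ko lines (-2.07 ± 0.95, 95% interval from -4.25 to 0.10). Wild-type line 2 overlapped the knockouts. In the NF-kB and TNF pathway, 28 of 32 genes were tested, the median was -0.08, and the co-regulator Bcl3 alone had a p under 0.05, at -2.19 ± 0.90 (95% interval from -4.25 to -0.14), with wild-type lines 1 and 4 at 0.423 and 0.676 CPM inside the range of the knockouts.

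All 38 DNA replication and mitosis genes were tested, and 36 were below and 2 above 0, with log2 fold changes from -0.47 to 0.01 and a median of -0.17, against 49.4% of all genes above 0. The intervals of 33 lay within 2-fold. Pcna, the replication clamp, was at 149, 161, 145 and 135 CPM in the wild-type and 102, 119, 115 and 133 CPM in the Cdk8-ko lines, and was the only member at p under 0.05 and the only one whose groups did not overlap (-0.34 ± 0.14, 95% interval from -0.65 to -0.02). On the mean log2 CPM of the list, wild-type line 1 stood at -0.30 and Cdk8-ko line 1 at -0.40 from the mean of all libraries, and the other 6 stood between -0.15 and 0.24. Leaving out 1 library moved the median between -0.29 and -0.07. In DMSO the median of these genes was 0.11, with 27 of 38 above 0, where 50.3% of all genes in DMSO were above 0.

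All 26 cholesterol synthesis genes were tested, 24 were below and 2 above 0, and the median log2 fold change was -0.36, with none at p under 0.05. The median was -0.60 without wild-type line 1 and -0.13 without Cdk8-ko line 1. Idi1, an isomerase of the pathway, was at 4.51, 7.72, 12.5 and 9.09 CPM in the wild-type and 2.72, 3.43, 2.21 and 9.03 CPM in the Cdk8-ko lines (-0.96 ± 0.52). Fdft1, which encodes squalene synthase, was at 20, 130, 94.7 and 63.4 CPM in the wild-type and 24.1, 38.7, 52.2 and 67.2 CPM in the knockouts. No member was separated by genotype. The list mean of wild-type line 1 stood 0.76 and that of Cdk8-ko line 1 1.02 below the mean of all libraries on the log2 scale, a distance larger than the difference between genotypes. In DMSO the median of the 25 genes tested was 0.37, with 22 above 0.

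**Figure D4:**
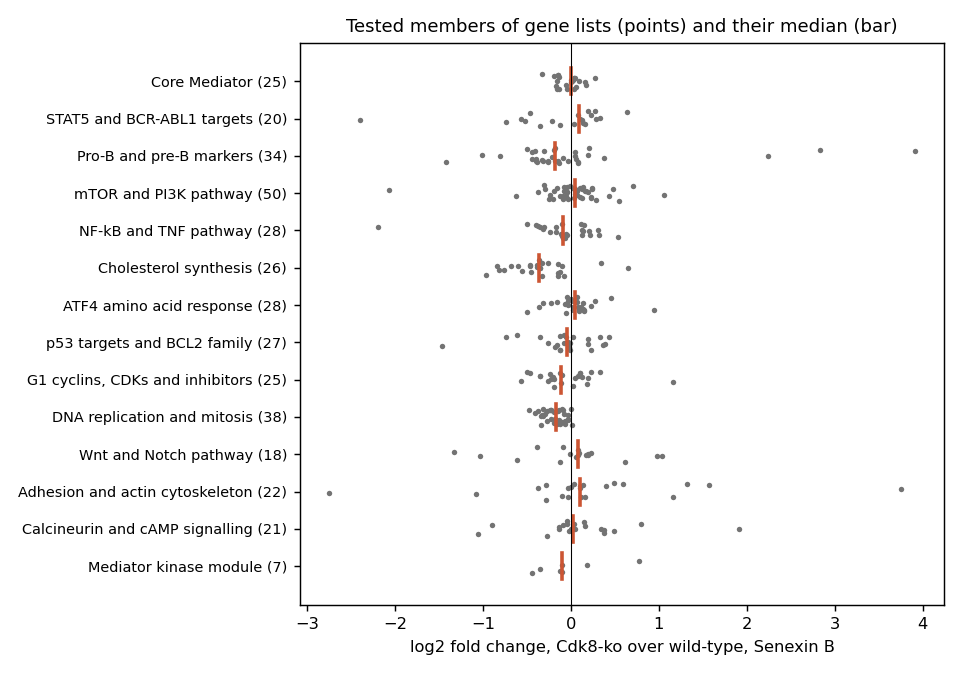
log2 fold change of Cdk8-ko over wild-type lines under Senexin B for each tested member (points) of 14 gene lists, with the list's median as a red bar and the number tested in brackets; the vertical spread of points within a row carries no value. The lists centre near 0, the lowest medians being cholesterol synthesis at -0.36, pro-B and pre-B markers at -0.18 and DNA replication and mitosis at -0.17.

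Among the amino acid response genes of ATF4, 28 of 28 were tested, none had a p under 0.05, and the median was 0.05; in DMSO it was -0.66, with 2 of 28 above 0. Trib3, a pseudokinase of that response, ranged from 17.7 to 182 CPM in the wild-type and from 18.7 to 405 CPM in the Cdk8-ko lines under Senexin B. Leaving out 1 library moved the list median between -0.25 (without Cdk8-ko line 1) and 0.46 (without wild-type line 1). The p53 targets and BCL2 family (27 of 32 tested, median -0.05) and the G1 cyclins, CDKs and inhibitors (25 of 26 tested, median -0.11) held no gene at p under 0.05. Cdk4, a G1 kinase, was at -0.35 ± 0.21, and Cdkn1a, which encodes the inhibitor p21, at -0.35 ± 0.29. The Wnt and Notch pathway (18 of 20 tested, median 0.08) held none either, its smallest p being that of the Wnt co-receptor gene Lrp5 at -1.33 ± 0.77.

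In the calcineurin and cAMP list, 21 of 22 genes were tested and 3 had a p under 0.05. Pde4d, a phosphodiesterase that degrades cAMP, was at 28.4, 39.3, 35.3 and 46.9 CPM in the wild-type and 16.7, 22.5, 19.5 and 21.7 CPM in the Cdk8-ko lines, without overlap, a log2 fold change of -0.90 ± 0.20 (SE, 95% interval from -1.36 to -0.44). Plcb2, a phospholipase C gene, was at 11.6, 5.71, 9.53 and 2.70 CPM against 27.2, 27.7, 47.1 and 9.57 CPM (1.92 ± 0.56, 95% interval from 0.64 to 3.19), overlapping through Cdk8-ko line 4. Rcan1, an inhibitor of calcineurin, was at -1.06 ± 0.43 (95% interval from -2.03 to -0.09). Nfat5, a transcription factor of the NFAT family, was higher without overlap at 128 ± 14.5 against 101 ± 19.7 CPM (SD, n = 4 each), but its 95% interval from -0.06 to 0.75 includes 0.

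In the adhesion and actin list, 22 of 24 genes were tested with a median of 0.10, and 2 had a p under 0.05. The integrin gene Itga5 was at 0.141, 0.241, 0.526 and 3.23 CPM in the wild-type and 39.1, 11.4, 4.83 and 0.475 CPM in the Cdk8-ko lines (3.75 ± 1.38, 95% interval from 0.61 to 6.90), so that 3 knockout lines exceeded every wild-type line and the fourth did not. Ptk2, which encodes focal adhesion kinase, was at 41.1, 29.1, 26.1 and 6.91 CPM against 3.34, 0, 9.37 and 2.58 CPM (-2.75 ± 1.1, 95% interval from -5.27 to -0.23). Wild-type line 4 lay within the knockout range.

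Of the pro-B and pre-B markers, 34 of 35 were tested, 11 above and 23 below 0, with a median of -0.18. The median was -0.30 without Cdk8-ko line 4 and -0.03 without Cdk8-ko line 1. The recombinase genes Rag1 and Rag2 were the only members at p under 0.05. Rag1 was at 1.20, 2.65, 11.3 and 13.3 CPM in the wild-type and 4.02, 16.5, 122 and 61.9 CPM in the Cdk8-ko lines (2.84 ± 1.09, 95% interval from 0.34 to 5.33), and Rag2 at 0.493, 5.07, 7.74 and 2.85 CPM against 1.76, 15.4, 44.2 and 15.7 CPM (2.25 ± 0.98, 95% interval from 0.01 to 4.48). Cdk8-ko line 1 overlapped the wild-type lines in both genes, and the highest values were in line 3. Rag1 and Rag2 share 240 and 416 exon bases with B230118H07Rik. Igll1, a surrogate light chain gene, was lower without overlap, between 1353 and 1841 CPM against between 836 and 1347 CPM, with a 95% interval from -0.91 to 0.03. In such bulk samples, fewer cells of a type and less RNA per cell cannot be told apart.

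The T cell and NK list had 4 of 14 genes tested, 1 above and 3 below 0, with a median of -0.13. The plasma cell list had 7 of 8 tested, 5 above and 2 below 0, with a median of 0.04. Neither list held a gene at p under 0.05. Klrb1c, an NK receptor gene and the only T cell and NK marker above 0, was at 0.211, 2.57, 1.63 and 3.68 CPM in the wild-type and 0.566, 0.269, 20.2 and 79.3 CPM in the Cdk8-ko lines. The plasma cell gene Jchain was at 10.1, 4.26, 2.53 and 9.31 CPM against 1.59, 3.63, 59.6 and 50.4 CPM. In both genes, the high values were those of Cdk8-ko lines 3 and 4, the lines that share Ighv8-7. Klrb1c shares 2664 exon bases with Gm44511 on the same strand. Of the 8 imprinted genes tested of 22, H19 had a p under 0.05; it was at 0.211, 0.322, 2.84 and 0 CPM in the wild-type and 11.5, 1.61, 39.7 and 145 CPM in the knockouts (5.78 ± 1.62, 95% interval from 2.09 to 9.48), with Cdk8-ko line 2 below wild-type line 3. None of the 9 sex-linked genes tested of 10 had a p under 0.05.

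The DMSO libraries of the same 8 lines show whether these differences were there without the inhibitor. In DMSO, 1 of 13174 genes passed the limits (0.00759%), which was Sva, at 0 CPM in the wild-type lines and 5.76, 5.42, 6.23 and 5.98 CPM in the Cdk8-ko lines. This call was lost, leaving 0, with each library left out, with the replicate block and with Cdk8-ko lines 3 and 4 summed, while DESeq2 called 32 genes. A filter of 10 counts in every library also left 0, but it removes Sva before the test and so cannot show whether the call holds. Slc15a2 was at 22.5, 17.0, 7.64 and 27.5 CPM against 1.27, 0.0645, 0 and 0.757 CPM, and Nradd at between 0.471 and 0.605 CPM against between 2.47 and 5.32 CPM. Pde4d was at between 30.7 and 37.6 CPM against between 17.1 and 23.4 CPM. These 4 genes did not overlap between genotypes under either treatment; in DMSO 3.08% of all genes did not. Of the 22 separated genes described, 11 were separated in the same direction in DMSO and 11 overlapped there. In DMSO 21 had a fold change of the same sign, and Prdx2-rs3 had the other, at 0.53 in DMSO and -1.08 with Senexin B on the log2 scale. The overlapping genes were Mcub, Tmc4, Tgtp2, Gm38372, Tgfb3, 5930430L01Rik, 4930432K21Rik, Il18rap, Plxdc1, Mctp1 and Prdx2-rs3. Both treatments were given to the same lines and so are not independent: the deviations of a line's paired libraries from their group means correlated with r between 0.586 and 0.870.

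Cdk8 was at 66.3 ± 2.96 CPM in the wild-type and 45.4 ± 7.47 CPM in the Cdk8-ko lines in DMSO (SD, n = 4 each), without overlap. The exact permutation test gave p = 0.0286, the smallest it can give. Of 14 genes earlier described in the DMSO genotype comparison, 13 were tested with Senexin B, and 5 higher and 5 lower had a p under 0.05. They had been picked on libraries of the same lines and are not independent evidence. Armcx1 was at 33.5, 30.2, 20.8 and 3.76 CPM against 5.27, 0.740, 0 and 0.0679 CPM (-3.84 ± 1.40), and Kif3c, a kinesin gene, at 9.14 ± 4.31 and 3.81 ± 1.59 CPM (SD, n = 4 each). Kif3c shares 5045 exon bases with 1110002L01Rik on the other strand. Actn1, an actin crosslinker, overlapped with Senexin B (from 8.74 to 140 CPM against from 31.0 to 221 CPM) and did not in DMSO (from 8.19 to 38.6 CPM against from 51.6 to 132 CPM).

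**Figure D5:**
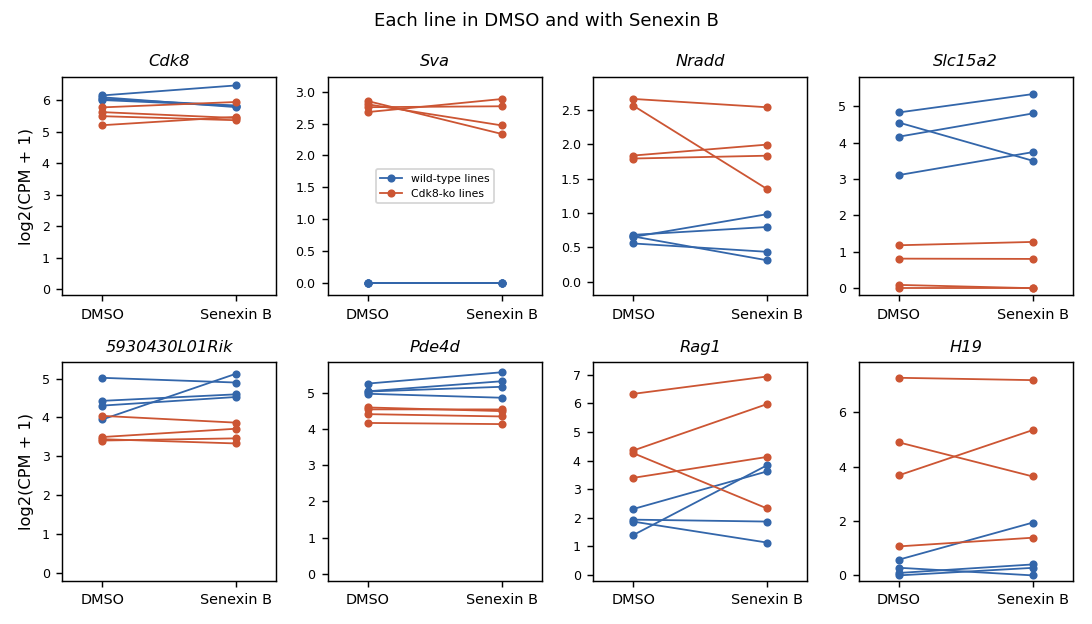
log2(CPM + 1) of 8 genes in each wild-type and Cdk8-ko line in DMSO and with Senexin B, with 1 connecting line per cell line. Sva, Nradd, Slc15a2 and Pde4d stay separated by genotype under both treatments, while Cdk8, Rag1 and H19 are separated in DMSO and overlap with Senexin B, and 5930430L01Rik is separated with Senexin B only.

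Whether the genotype difference itself changed with Senexin B was tested by the interaction over all 16 libraries. No gene of 14164 passed the limits (0% called) in edgeR, with 67 genes (0.473%) at an unadjusted p under 0.05, and none passed in DESeq2. With the line as a block, again no gene passed, while 459 (3.24%) had an unadjusted p under 0.05. For the genes described, the interaction with the line as a block, on the log2 scale, was 0.13 ± 0.19 (SE) for Cdk8, -0.35 ± 0.56 for Nradd, -0.20 ± 0.66 for Slc15a2, -0.21 ± 0.16 for Pde4d and -0.37 ± 0.28 for 5930430L01Rik. For the genes above that overlapped under 1 treatment only, no difference between treatments was therefore shown.

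The genes with the smallest interaction p-values were picked in the fit without the line as a block, which treats a line's DMSO and Senexin B libraries as independent. Among them, Zcchc2, a zinc finger gene, was at 0.20 with Senexin B and -0.30 in DMSO (log2 fold change of Cdk8-ko over wild-type), a difference of 0.50. Atg13, an autophagy initiation gene, was at 0.34 and -0.15. Apex1, which encodes a base excision repair nuclease, was at -0.32 and 0.31, and shares 1974 exon bases with Pip4p1 on the other strand. Prdx2-rs3 and Gm7626, both low and between 0.119 and 2.41 CPM in every Senexin B library, were among those in the lower direction, with differences of -1.60 and -2.35. In the fit without the block the adjusted interaction p of all of them was 1.00 after rounding, and with the line as a block it was 0.991.

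The 6 genes earlier described as responding to Senexin B had overlapping levels in both genotypes under the inhibitor, and none had a p under 0.05. Csf2rb2, a cytokine receptor chain, was at 5.14, 7.88, 6.26 and 10.1 CPM in the wild-type and 5.78, 21.2, 23.4 and 9.51 CPM in the Cdk8-ko lines with Senexin B, below the DMSO range of 24.4 to 42.5 CPM and 28.2 to 77.5 CPM in both genotypes. Its genotype difference was 1.03 ± 0.46 (log2 fold change ± SE, 95% interval from -0.02 to 2.08). Bhlhe41, a clock-related repressor, ranged from 9.93 to 217 CPM and from 21.7 to 283 CPM. Ly6d, a lymphoid surface antigen, ranged from 7.96 to 20.3 CPM and from 0.170 to 17.3 CPM, with an interval of its difference from -3.21 to 1.25, which does not leave out a 2-fold difference in either direction.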

How the data were processed

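RNA of BCR-ABL1p185 mouse cell lines was sequenced (single-end SENSE libraries), and the deposited files hold raw read counts per gene, 1 file per library. Per the labels and file headers, the authors trimmed reads with Trimmomatic, aligned them with STAR and made the counts with featureCounts 1.5.1 against GENCODE M13 gene models (GRCm38), with no strand option, so overlapping genes on opposite strands cannot be told apart. In 15 of 16 headers the path names a folder called modified. Counts are whole reads without molecular identifiers, and errors cover the spread between lines.

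Of 50686 genes, 310 had no symbol. Counts were fitted with edgeR 4.0.16 in R 4.3.3 (TMM, filterByExpr by genotype, robust quasi-likelihood test, Benjamini-Hochberg over all tested genes) on the 8 Senexin B libraries; a call needed an adjusted p under 0.05 and a fold over 2. CPM values use the effective library sizes. The same fit was made on the 8 DMSO libraries, and an interaction on all 16, without and with the line as a block. The replicate number names the line: paired DMSO and Senexin B libraries correlated in their deviations (r between 0.586 and 0.870), while of the lines with the same number in the 2 genotypes, numbers 1 and 4 correlated (r of 0.19 and 0.43) and numbers 2 and 3 did not (r of -0.12 and -0.01); as not every pair did, the genotype fit has no block. No pair of libraries was a copy of another (smallest chi-square per gene 40.3). DESeq2 1.42.0, other filters, scalings, limits and left-out libraries were tried. A floor of 3 counts per library was used only for the lower bound of a fold where 1 genotype had no counts. The CPM values, fold changes and overlaps were not floored. The scripts were tested on simulated data.

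Named genes were the kinase module, the genes past the limits (none), up to 12 in each direction with the smallest p among those over 2-fold whose libraries did not overlap, the genes called by DESeq2, the 4 smallest p of each list, the genes of 2 earlier lists and the 5 smallest interaction p in each direction; not all are printed. The members, lists and rules were chosen with earlier results of these data known. Some items are not reported here.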

Additional observations from a re-analysis of the deposited data

Results flagged for a closer look

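In 67 groups of 4 libraries, 1 value stood farther from the others than Dixon's 95% limit for the gap over the range in 7 cases. Chance flags about 1 in 20 groups of normally spread values. Most genes here were picked for their levels in these same libraries, so the 7 cases cannot be set against that rate. Cdk8 was at 87.4 CPM in wild-type line 1, where the nearest wild-type line was at 55.8 CPM, and at 60.4 CPM in Cdk8-ko line 2, where the nearest knockout line was at 43.3 CPM. Syt11 and Lpcat4 were at 9.49 and 63.5 CPM in Cdk8-ko line 3, against 6.29 and 36.6 CPM in the nearest line. Mctp1 was at 26.2 CPM in wild-type line 4, against 8.67 CPM. Cd302 and Cyyr1 were each at 0.0804 CPM in wild-type line 2, which is 1 count, against 0 in the other wild-type lines. Such a group is flagged whatever the size of its only value above 0.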

How the results depend on the processing

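The count of genes that differed between genotypes with Senexin B, 0, became 1 (Sva) at an adjusted p limit of 0.1, 1 (Sva) with no filter beyond 1 count and 1 (Sva) with all 16 libraries in one fit, and 10 with DESeq2. It was 0 under RLE size factors, a filter of 10 counts in every library, no fold limit, the replicate block, the fits without genes of X and Y or without immunoglobulin and T-cell receptor genes, each left-out library, and with Cdk8-ko lines 3 and 4 summed, an alternative chosen after seeing the data. The number at an unadjusted p under 0.05, 202, was 450 with DESeq2, 596 without the filter, 403 over all 16 libraries, 255 with the replicate block and between 147 and 400 with 1 library left out. It was 400 without wild-type line 1, 373 without Cdk8-ko line 1 and 343 without wild-type line 4. In DMSO the count of 1 became 32 with DESeq2 and 0 with at least 10 counts in every library, with the replicate block, with each library left out (0 to 0), and with lines 3 and 4 summed. Under both treatments the filter of 10 counts in every library removes Sva before the test, so its 0 cannot show whether the Sva call holds. The interaction stayed at 0 under every alternative run, and 27 to 459 genes had an unadjusted p below 0.05. The log2 fold change of Cdk8 ran from -0.59 to -0.24 with 1 library left out, -0.24 being without wild-type line 1. Of 118 named genes with a value, 95 kept their sign in all alternatives, and 42 of 1969 alternative values had the other sign. Many of these genes were picked for a small p or separated groups in these same libraries, which favours a kept sign. Of 23 list medians, 7 kept their sign. The cause of these changes was not tested. With 4 lines a genotype and a median standard error of 0.30, small differences were not detectable, and most 2-fold ones would not be called either. Data were simulated with each gene's fitted spread, with independent lines and with changes placed in genes picked at random. There 2 of 66 genes changed by 2-fold were called, 46 of 67 by 4-fold and 55 of 65 by 8-fold, with 3 false calls. The real lines need not be independent, and Slc15a2 at -5.33 and Gm26947 at -4.20 (log2 fold change) were not called in the main fit. The simulated shares can therefore not be carried over to these libraries, and the lack of calls does not exclude large differences. A call also needs an estimated fold over 2.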
